A study of Drosophila melanogaster with 3 samples.

Results

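Strong binding of the BTB-domain protein BtbVII to Drosophila embryo chromatin was often packed into short stretches of the genome, and the regions described here are those packed stretches. A strong peak was called clustered when its summit had at least 3 other strong summits within 10000 bp on the same chromosome, and isolated when it had none. The rule read only the positions of the summits in the list of strong peaks, and 13 rows that repeated the coordinates of another were dropped first. It gave 1729 clustered peaks out of 5206, with 1125 isolated peaks and 2352 peaks that had 1 or 2 others. The values that chose the members are thus their spacing and, because signal decided which regions entered the list, their signal.

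The data came from chromatin immunoprecipitation and sequencing (ChIP-seq) of 3 biological replicates that form a single group. The flies stably carried BtbVII with green fluorescent protein (eGFP) at its C terminus, and an antibody against GFP was used. The starting material was mixed-sex whole embryos that covered the first 0 to 24 h, so all stages of embryogenesis and all cell types are mixed, and a region bound in few cells cannot be told apart from one bound weakly in many. The labels do not state which promoter drives the tagged gene, and no second genotype or antibody was compared.

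BTB domains let transcription factors pair with each other and with partner proteins, and several fly members of the family, GAGA factor (encoded by Trl) among them, assemble into larger complexes on DNA. GAGA factor binds alternating GA sequence and is known for opening chromatin at promoters and for action at Polycomb and trithorax response elements. In flies, dense groups of transcription factor peaks are commonly found over promoters and over enhancers, which often lie in introns.

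Sequences were taken from the Release 6 (dm6) genome and are written 5′ to 3′ on the plus strand. The first set shows the 8 clustered peaks with the longest runs of alternating GA (or TC on the other strand) within 100 bp of the summit, named by the gene with the nearest transcription start site (TSS). Capitals mark the run, and 15 bp of flank are given on each side.
CHES-1-like, chrX:7690882-7690952: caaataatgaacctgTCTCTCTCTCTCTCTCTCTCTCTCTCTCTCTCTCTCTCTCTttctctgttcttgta
Csk, chr3R:11648958-11649016: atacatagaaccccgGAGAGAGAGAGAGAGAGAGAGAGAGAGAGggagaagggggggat
bif, chrX:11686334-11686388: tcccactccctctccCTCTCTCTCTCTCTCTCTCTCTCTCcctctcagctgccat
lncRNA:CR46110, chr3R:29774585-29774638: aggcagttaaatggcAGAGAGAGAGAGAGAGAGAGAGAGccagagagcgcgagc
lncRNA:CR44187, chr2L:20706068-20706120: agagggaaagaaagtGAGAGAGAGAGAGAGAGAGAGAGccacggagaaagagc
sog, chrX:15619645-15619697: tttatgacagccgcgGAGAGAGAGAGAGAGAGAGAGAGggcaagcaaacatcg
Raf, chrX:2302279-2302330: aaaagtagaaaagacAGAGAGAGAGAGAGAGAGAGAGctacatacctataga
blot, chr3L:17421568-17421619: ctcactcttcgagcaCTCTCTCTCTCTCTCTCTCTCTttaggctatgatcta
The longest run had 41 bases, lay in an intron of CHES-1-like and was centred 78 bp from a summit with a signal of 486. The others had between 22 and 29 bases. Of these 8 peaks, those nearest to the TSSs of blot and lncRNA:CR46110 lay at promoters and the other 6 in introns.

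The second set shows 4 of the 6 clustered peaks of highest signal, with 60 bp on each side of the summit, which is the base in capitals.
cbt, chr2L:480997-481117: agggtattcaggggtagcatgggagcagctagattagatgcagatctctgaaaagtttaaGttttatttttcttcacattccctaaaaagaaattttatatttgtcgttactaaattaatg
Trl, chr3L:14759457-14759577: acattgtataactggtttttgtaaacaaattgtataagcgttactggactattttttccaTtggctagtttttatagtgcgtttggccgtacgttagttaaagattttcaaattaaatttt
lncRNA:CR44619, chrX:12751271-12751391: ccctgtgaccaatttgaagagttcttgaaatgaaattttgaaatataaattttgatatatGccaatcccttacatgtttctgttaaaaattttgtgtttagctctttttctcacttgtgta
jp, chr2L:9567452-9567572: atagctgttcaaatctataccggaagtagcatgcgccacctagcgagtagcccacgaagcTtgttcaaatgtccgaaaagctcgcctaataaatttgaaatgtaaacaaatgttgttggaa
None of these 4 windows held GAGAGA on either strand, and within 100 bp of the summit 1 of the 10 clustered peaks of highest signal did, the peak in Lk6. The runs of the first set are shown because GAGAGA is compared between clustered and isolated peaks below, and these 4 because they are among the members of highest signal. The peaks at px and Tina-1, both at promoters and higher in signal than that at jp, are not shown, so none of the 4 is a promoter peak.

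The third set shows the 5 summits of highest signal in the locus with most clustered summits, at tara, from the highest signal down and with 30 bp on each side of the summit base in capitals.
tara, chr3R:16236929-16236989: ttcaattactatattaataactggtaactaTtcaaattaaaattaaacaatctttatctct
lncRNA:CR45643, chr3R:16222464-16222524: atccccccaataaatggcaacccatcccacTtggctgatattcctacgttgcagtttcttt
lncRNA:CR45643, chr3R:16224526-16224586: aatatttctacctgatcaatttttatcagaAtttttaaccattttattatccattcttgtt
lncRNA:CR45643, chr3R:16221861-16221921: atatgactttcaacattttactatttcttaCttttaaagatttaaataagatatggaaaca
tara, chr3R:16247781-16247841: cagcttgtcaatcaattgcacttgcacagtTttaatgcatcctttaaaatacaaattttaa
None of these 5 windows held GAGAGA, although a match lay just outside the first.

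Strong peaks were not evenly spread, which the rule turns into its members. There was 1 strong peak per 25.7 kb of the chromosome arms. A summit had on average 2.05 others within 10000 bp, where uniformly random placement at that density would give 0.778 on average. The rule read this spacing, so these values only describe the list. Close summits that may be a single site were counted apart. The most crowded summit had 12 others. Clustered peaks made up 33.2% of the pooled list. The same rule applied to each replicate's own 5219 regions of highest signal gave 31.8% in replicate 1, 33.6% in replicate 2 and 37.7% in replicate 3 (34.4 ± 3.01%, SD, n = 3). Replicate 3 was the most crowded, with 8.15% of its summits having 6 or more others, against 5.62% in replicate 1 and 5.25% in replicate 2. When only strong peaks found in both other replicates were kept, it was 21.4% of 3424 without replicate 1, 21.1% of 3448 without replicate 2 and 22.0% of 3745 without replicate 3.

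**Figure D1:**
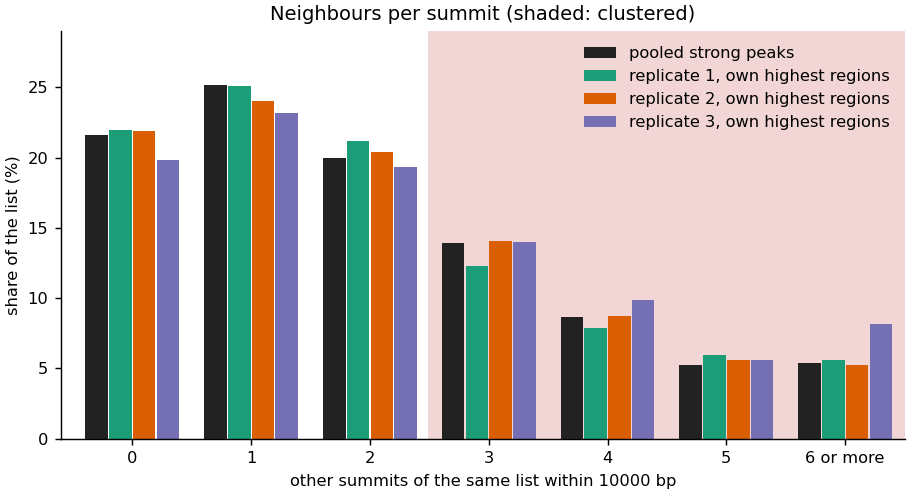
Share of each list (vertical axis, %) by the number of other summits of that list within 10000 bp (horizontal axis), for the pooled strong peaks and for each replicate's own regions of highest signal; the shaded bars are the clustered summits. All 4 lists fell off from 1 other onwards except for the open-ended last class, and replicate 3 had the largest share there, 8.15%.

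All large chromosome arms held members, namely 2R (410 of them), 3L (390), 3R (387), 2L (294) and X (248). As a share of the strong peaks of the arm they ran from 29.5% on X to 39.7% on 2R. None of the 16 strong peaks of chromosome 4 was clustered, and 10 of them were isolated.

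Members near the edge of the rule are given beside the peaks just outside it, with no test. The 186 members for which the third nearest summit lay over 9000 bp away had a median signal of 249, and 53.8% of them were at promoters. The 174 peaks just outside, with the third nearest within 11000 bp, had a median signal of 257 and a promoter share of 47.7%. The intron share was 34.9% just inside and 40.2% just outside, and GAGAGA was in 11.3% and 13.8%. At this edge placement and GAGAGA thus ran opposite to the comparison of all clustered with isolated peaks given next.

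Clustered peaks lay less often at promoters and more often in introns than isolated ones. Placement was not used by the rule. A summit within 500 bp of any annotated TSS was called promoter, and the others were placed by what the Ensembl annotation has at the base. Of the clustered summits 42.4% were at promoters (733, 95% interval 40.1 to 44.8) and 44.0% in introns (760, 41.6 to 46.3). Of the isolated summits 50.8% were at promoters (571, 47.8 to 53.7) and 33.2% in introns (373, 30.4 to 36.0). Intergenic summits made up 9.49% of clustered and 14.2% of isolated peaks, and with 9.31% the peaks with 1 or 2 others were near the clustered ones. Non-coding exons held 30 clustered summits, 1.74%, and 5 isolated ones, 0.444%. Several of these 30 lay in a single locus on 3L, named by Reg-2 below, and mostly in lncRNA:CR43334. Coding exons held 7 clustered and 5 isolated summits. For background, promoters held 49.4% of all strong peaks and 27.2% of the weaker candidates, which are the other 24781 regions of the pooled list of 30000.

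The same comparison was made in each replicate's own list, where clustered and isolated regions were found afresh. Promoter shares of clustered regions were 43.3, 42.4 and 42.9% in replicates 1, 2 and 3, and those of isolated regions 50.5, 53.3 and 51.3%. The groups did not overlap. The difference, clustered minus isolated, was -8.85 ± 1.90 percentage points (SD, n = 3, lower in 3 of 3, two-sided exact sign-flip permutation p = 0.25). For introns it was 11.2 ± 1.02 percentage points (higher in 3 of 3, exact permutation p = 0.25), and for intergenic sequence -4.17 ± 1.99 (lower in 3 of 3, exact permutation p = 0.25). With 3 replicates 0.25 is the smallest p that this test can give, so no difference here could pass 0.05; over the 18 measures tested this way the Benjamini-Hochberg adjusted value was 0.3 for each of these. Many regions recur in all 3 lists, and how far this bears on their spread was not tested.

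**Figure D2:**
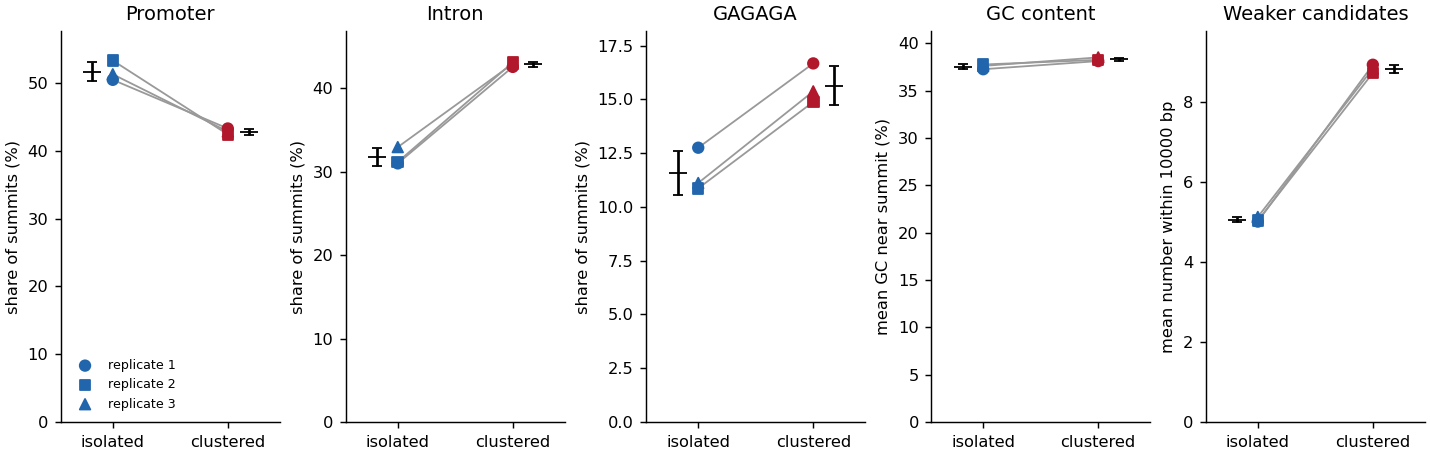
Isolated (blue) and clustered (red) regions of each replicate's own list, joined by replicate, with the mean and SD over 3 replicates in black; the vertical axes give the share of summits (%), the mean GC content (%) and the mean number of weaker candidates within 10000 bp. All 3 replicates moved the same way in each panel, with intron shares of 42.6 to 43.1% in clustered against 31.0 to 33.0% in isolated regions.

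The chromosome arms did not all follow this pattern. On X, 2R, 3R and 3L the promoter share of clustered peaks was 10.2 to 13.7 percentage points below that of isolated peaks. On 2L it was 3.64 percentage points above, and the intron share was 6.07 percentage points below. On the other 4 arms the intron share was 10.7 to 16.6 percentage points above. With a window of 20000 bp in the rule the promoter difference over all arms was 0.0208, and among peaks that both other replicates supported it was -14.0 without replicate 1, -13.6 without replicate 2 and -14.9 without replicate 3, against -8.36 in the whole list.

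Placement varied with crowding. The promoter share was 50.8% for summits with no other, 55.3% with 1, 52.1% with 2, 48.3% with 3, 41.2% with 4, 40.3% with 5 and 31.2% with 6 or more. The intron share was 33.2% with none and 48.8% with 6 or more. The intergenic share had no single direction, at 14.2% with none, 9.604% with 1, 8.94% with 2, 6.62% with 3, 10.8% with 4, 12.45% with 5 and 11.8% with 6 or more. The peaks with 1 other, not the isolated ones, thus had the highest promoter share.

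**Figure D3:**
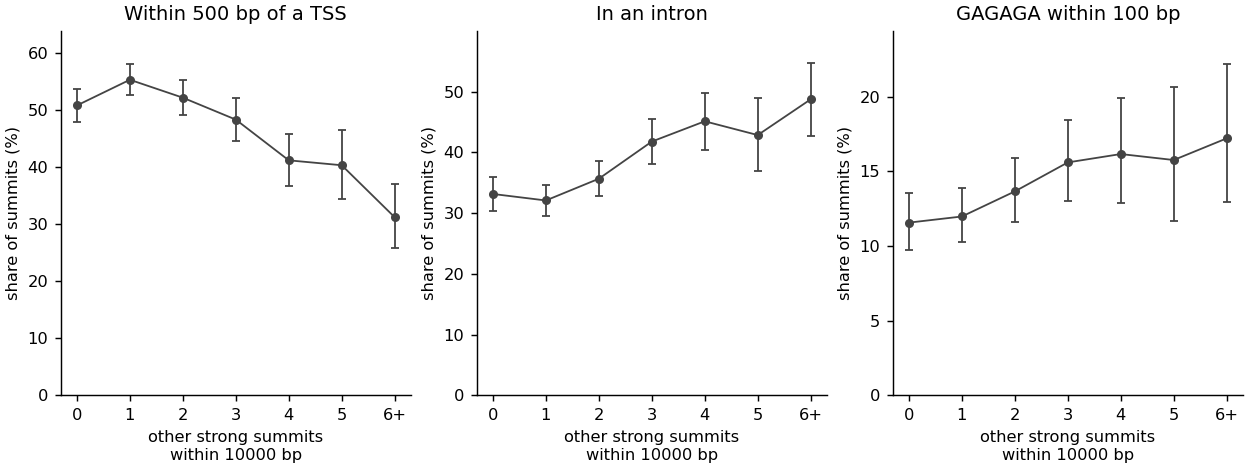
Share of strong summits (vertical axes, %) within 500 bp of a TSS, in an intron, and with GAGAGA within 100 bp, by the number of other strong summits within 10000 bp (horizontal axes); bars are exact 95% binomial intervals over peaks. The promoter share is lowest, 31.2%, where 6 or more others are near, and the GAGAGA share there is 17.2% against 11.6% with none.

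Clustered intronic summits lay in shorter genes than isolated ones, by their medians and with no test. Each summit was given the length of the longest protein-coding gene over it, so a gene counted once per summit. The median over the 756 clustered intronic summits lying in such a gene was 24.6 kb, against 38.3 kb over the 363 isolated ones. The distance to the nearest TSS was also shorter for clustered intronic summits, with a median of 2185 bp against 3626 bp. Inside protein-coding genes of 20 kb or more lay 32.9% of clustered and 31.6% of isolated summits. Protein-coding gene starts within 10000 bp numbered 3.13 on average around clustered and 2.85 around isolated summits.

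Alternating GA sequence was more frequent in clustered peaks. The motif GAGAGA, searched on both strands within 100 bp of the summit, was found in 277 of 1729 clustered peaks (16.02%, 14.3 to 17.8) and in 130 of 1125 isolated peaks (11.6%, 9.75 to 13.6). It was in 13.6% of all strong windows and in 10.01% of the windows of weaker candidates. In the replicates' own lists the shares were 16.7, 14.9 and 15.4% in clustered and 12.8, 10.9 and 11.1% in isolated regions, and the groups did not overlap. The difference was 4.07 ± 0.175 percentage points (SD, n = 3, higher in 3 of 3, exact permutation p = 0.25, the smallest possible). The share was higher in clustered peaks on 5 of 5 arms.

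The difference is given next at promoters and elsewhere. At promoters 18.6% of clustered and 11.2% of isolated summits had GAGAGA, and the replicate difference was 6.99 ± 0.809 percentage points (n = 3, higher in 3 of 3, exact permutation p = 0.25). Outside promoters the shares were 14.2% and 11.9%, with a replicate difference of 1.71 ± 0.908 (higher in 3 of 3, exact permutation p = 0.25) and the opposite direction on 3R. Peaks with 2 others, which are not members, held it outside promoters in 14.7% of cases, about as often as the clustered ones, and those with 1 other in 10.4%. The gap between these replicate differences was not itself tested. Long runs were rare everywhere. Alternating GA of 20 bases or more was found at 12 clustered peaks (0.694%, 0.359 to 1.21), 3 peaks with 1 or 2 others and 2 isolated peaks (0.178%, 0.0215 to 0.641).

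Another 7 motifs were searched the same way. CACACA was in 20.1% of clustered and 17.3% of isolated windows (replicate difference 3.12 ± 1.10 percentage points, n = 3, exact permutation p = 0.25), but the weaker candidates held it in 20.2%. ATATAT was in 21.5% of clustered and 23.6% of isolated windows (replicate difference -2.89 ± 0.763 percentage points, exact permutation p = 0.25). Peaks with 1 or 2 others held it in 21.2%, near the clustered ones, and weaker candidates in 18.4%. The core of the DRE, the site of the promoter factor DREF (TATCGATA), was in 1.22% of clustered and 2.13% of isolated windows (replicate difference -0.508 ± 0.229, lower in 3 of 3, exact permutation p = 0.25), and nearly all of those matches lay at promoters, 20 of 21 and 21 of 24. The Zeste core TGAGTG, the A tract AAAAAAAA, the GATA site AGATAA and the E-box CAGGTG had replicate differences between -1.52 and 0.553 percentage points; the E-box was higher in 3 of 3 replicates, and the other 3 differed in sign between replicates. GAGAGA and CACACA cannot overlap by more than 1 base. GC content within 100 bp was 38.1% in clustered and 37.3% in isolated windows (replicate difference 0.752 ± 0.228, n = 3, exact permutation p = 0.25), and was higher on 3 of 5 arms. It turned to -0.112 in the widest sequence windows tried and to -0.0491 among strong peaks above the median signal. The share of bases that the genome file marks as repeats was alike, 20.6% against 20.7%.

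Weaker candidates gathered around the clustered peaks too. A clustered summit had on average 8.97 weaker candidates within 10000 bp and an isolated summit 5.12. The replicate values were 8.94, 8.74 and 8.84 against 5.02, 5.04 and 5.13, and the difference was 3.78 ± 0.128 (SD, n = 3, higher in 3 of 3, exact permutation p = 0.25, the smallest possible). It was positive on 5 of 5 arms.

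Clustered peaks lay somewhat more often among each replicate's regions of highest signal, but no more often in a replicate region of any rank. The pooled list was made from the same replicates, so part of the support is built in. Support was also read from signal, which decided which regions were listed, so the difference and its p only describe the list. A peak was supported when its summit lay in a region among that replicate's 5219 of highest signal. Replicate 1 supported 84.5% of clustered and 83.5% of isolated peaks. Replicate 2 supported 86.1% and 81.9%. In replicate 3 the shares were 79.4% and 69.4%. The difference averaged 5.07 ± 4.51 percentage points (n = 3, higher in 3 of 3, exact permutation p = 0.25), and replicate 3 gave most of it. All 3 replicates supported 61.7% of clustered and 53.6% of isolated peaks, a difference of 8.11 percentage points. For each replicate, the same difference was taken among peaks that both others supported, regrouped by the rule. There it rests on that replicate alone, at 1.41 for replicate 1, 0.467 for replicate 2 and 6.25 for replicate 3. Among strong peaks above the median signal the difference in support by all 3 was -2.51. In any region of every replicate, whatever its rank, lay 95.8% of clustered and 96.1% of isolated summits. A clustered summit was also clustered by the replicate's own list in 67.8%, 72.4% and 63.8% of cases for replicates 1, 2 and 3, and in all 3 lists for 692 members (40.0%).

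Signal is given as a description only, since it decided which regions were listed. It is the value the authors' peak caller gave each region, in units that hold within a list. The median was 266 for clustered and 244 for isolated peaks, a ratio of 1.09, and in the replicates' own lists the ratio was 1.09, 1.08 and 1.10. By place, the clustered and isolated medians were 269 and 257 at promoters, 258 and 236 in introns, and 297 and 239 in intergenic sequence.

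The members formed 376 loci, where a locus is a run of clustered summits with at most 10000 bp between neighbours. A single clustered summit made up 51 of them, 42 had 2 or 3, and 283 had 4 or more; 14 loci had 10 or more and together held 180 summits. Loci of at least 2 summits spanned a median of 8.95 kb (quartiles 6.39 and 12.6 kb), and the longest 48.1 kb. Of the 283 loci with 4 or more, 73 lay inside a single protein-coding gene, 35 had no promoter summit and 16 had promoter summits only. GAGAGA was near at least 1 summit in 169 of the 283 and near none in 114.

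Within these 283 loci the summit of highest signal was set beside the others, as a description with no test, since it was picked by its signal. It had a median of 1.89 times the median signal of its locus, with a range from 1.02 to 12.2. It was at a promoter in 50.2% of loci, against 39.6% of the 1295 other summits. GAGAGA was as frequent at the highest summits, 16.3%, as at the others, 16.1%.

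Some summits lay very close together. Of the 1353 gaps within loci 203 were under 500 bp, the smallest being 199 bp, and the median was 1789 bp. Among the members, 341 (19.7%) had another strong summit within 250 bp. Such a pair may be a single site listed as more than 1 peak, which the lists do not settle, so counts of clustered summits and of others may include the same site more than once. In the replicates, 230, 180 and 212 members shared a single region of replicate 1, 2 and 3 with another member. With each summit nearer than 500 bp to a higher one dropped, 27.6% of the remaining strong peaks were clustered. The 15 loci with most summits then held 168 of their 189 summits.

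The locus at tara, a trithorax group gene, was the longest. Its 19 summits spanned 48.1 kb on 3R (16205582 to 16253677), and 17 stayed after close summits were dropped. There were 7 at promoters, 7 in introns and 5 in intergenic sequence, and 8 lay in or within 1000 bp of tara. The summit of highest signal, in a tara intron (16236761 to 16237139, pooled signal 1353), had signals of 562, 535 and 275 in replicates 1, 2 and 3 and ranked 67, 102 and 72 there, where rank 1 is the highest signal of the list. An intergenic summit outside the gene (16222494) followed at 1283, with ranks of 111, 106 and 94. Both were among the higher regions of every replicate. The lowest of the 19 had a signal of 207 and ranked 4067, 2622 and 8862, and 13 of the 19 had the support of all 3 replicates.

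A second locus of 19 summits on 3L (606832 to 644291, 37.5 kb) was named by Reg-2, the protein-coding gene at its left edge, but held mainly non-coding genes. Of its summits 9 lay inside lncRNA:CR43334. Its signals were even and modest, from 176 to 431 with a median of 266, and no summit stood out as at tara. After close summits were dropped 16 stayed.

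The shn locus on 2R (11173644 to 11207358) held 17 summits, all within shn, which encodes a zinc finger protein that acts with the Smads Mad and Medea in Dpp signalling. A promoter summit 159 bp upstream of a TSS had the highest signal, 1378, and ranked 75, 85 and 76 in the replicates. The other 16 were intronic with signals of 179 to 604. Only 13 of the 17 were at least 500 bp from a higher one.

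On 2L a locus of 16 summits (1611279 to 1651275) filled the stretch between Rab3GAP1 and chinmo, a BTB zinc finger gene that sets the temporal identity of neurons. Its summits fell on 3 protein-coding genes with 1 each, and CG14352 was named because its overlap was longest. There were 11 intergenic summits. The highest, at 1643435 with a signal of 1405, ranked 61, 96 and 47, and a summit 17 bp from a chinmo TSS had a signal of 230.

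The locus of Pgk, which encodes the glycolytic enzyme phosphoglycerate kinase, and its neighbour Bacc was of another kind. Of its 13 summits over 19.1 kb on 2L (2748727 to 2767829), 11 were at promoters and 2 in introns, and none had GAGAGA. It touched 10 protein-coding genes. Of the 13, 8 stayed after summits within 500 bp of a higher one were dropped.

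The ush locus on 2L (468878 to 490748, 12 summits, none closer than 770 bp) held the member of highest signal of all. It lay in an intron of ush, the gene of a zinc finger cofactor of GATA factors, and 1369 bp upstream of the TSS of cbt, which encodes another zinc finger factor (480872 to 481301). The pooled signal was 3719, with 1441, 1429 and 765 in replicates 1, 2 and 3, and the ranks were 2, 3 and 1. The next summit, at the cbt promoter, had 1223, and the median of the locus was 304.

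**Figure D4:**
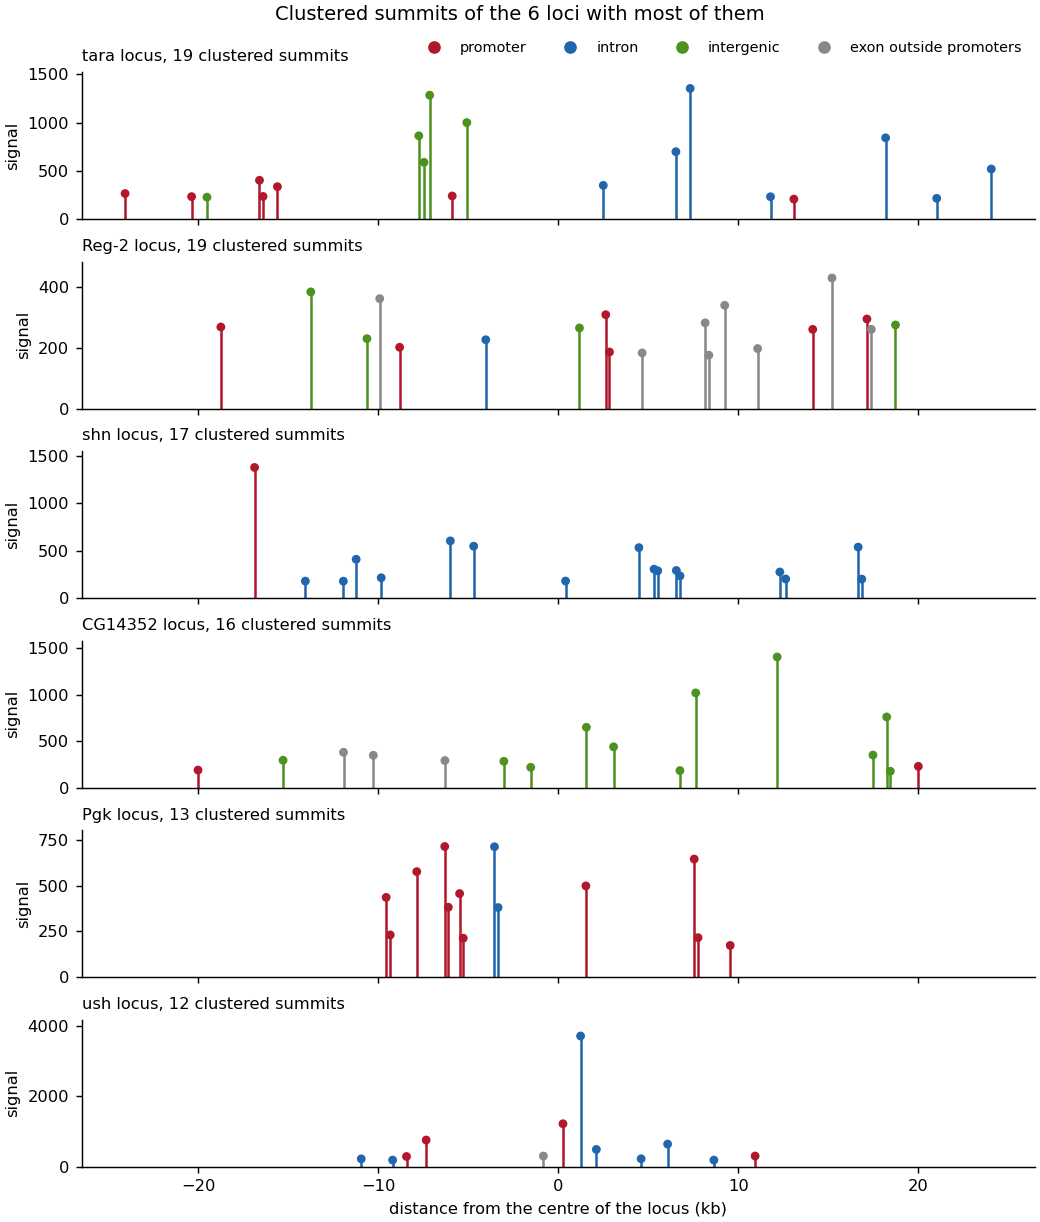
Signal of the pooled list (vertical axes, each from 0 with its own scale) of every clustered summit in the 6 loci with most of them, by distance from the centre of the locus in kb; colours give the place of the summit. The shn summits are intronic but for the highest, those of Pgk are mostly at promoters, and the ush locus has a single summit of 3719 over a median of 304.

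The remaining 9 of the 15 loci had 9 to 11 summits each. At 9 summits 8 loci were tied, and Raf was kept for its summed signal. CHES-1-like, a forkhead domain gene on X, held 11 summits in 18.3 kb, all within the gene, at signals of 269 to 1095. In sbb, a gene of a transcriptional corepressor on 2R, all 11 summits were intronic, and the highest (2035) lay 20104 bp from the nearest TSS and ranked 22, 21 and 27. Near CG13898 on 3L, all 10 summits were intergenic, at 179 to 536. The Raf locus on X, at the gene of the kinase that carries receptor signals to MAP kinase, had 9 summits in 12.8 kb with a median signal of 594. The others were named by siz, CG13917, l(3)neo38, CG14434 and aru. At CG14434 the highest summit (958) had no region of replicate 3 over it. Of the 15 loci, 3 lay inside a single protein-coding gene and 5 had their highest summit at a promoter.

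The 10 clustered peaks of highest signal ran from 1902 to 3719. An intronic peak in Trl (3L, 14759310 to 14759751) had a pooled signal of 3115 and ranked 4, 5 and 4. A peak in a non-coding exon near lncRNA:CR44619 on X (12750839 to 12751615) had 2948 and ranked 5, 6 and 6. The next were at px, a wing vein gene (2306), Tina-1 (2146), jp, the gene of junctophilin (2119), Lk6, a kinase gene (2052), CG13390 (2046), sbb (2035) and Fkbp14 (1902). All 10 ranked at 35 or better in replicate 1, 37 in replicate 2 and 27 in replicate 3. Of these 10 peaks 4 were at promoters, 4 in introns, 1 in a non-coding exon and 1 in intergenic sequence. All 10 isolated peaks of highest signal were at promoters, led by Ugalt, a UDP-galactose transporter gene (3686), CG14100 (2921) and Art3 (2054). These counts describe 20 peaks chosen by signal and carry no test.

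Clustered summits lay in, or within 1000 bp of a TSS of, 826 of 13945 protein-coding genes, 5.92%. Of the 3587 genes with any strong summit they were 23%, and 240 genes, 1.72%, held 3 or more. Keeping only the peaks that both other replicates supported gave 329 genes without replicate 1, 318 without replicate 2 and 370 without replicate 3. The share of all genes with a clustered summit rose with gene length, and the cause was not tested. A clustered summit was found in 3.12% of genes under 2 kb and in 15.7% of genes of 50 kb or more, while among genes with any strong summit the share stayed between 21% and 26.1% over all length classes.

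**Figure D5:**
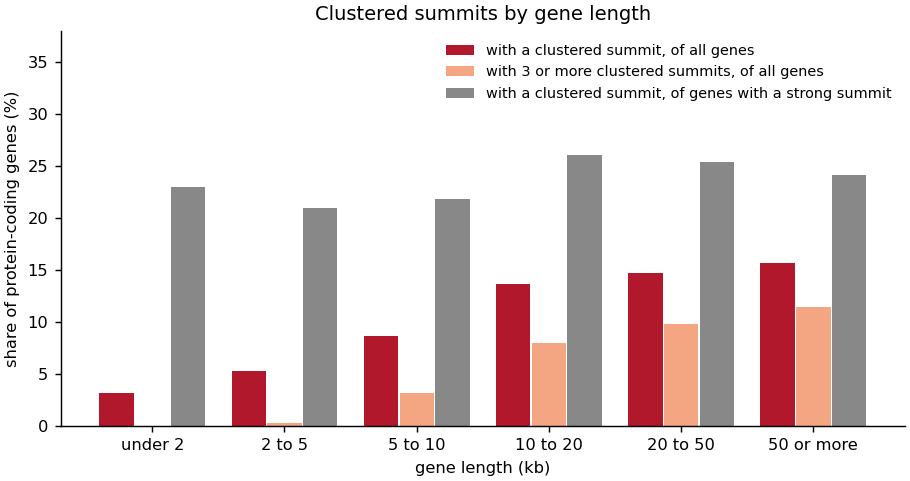
Share of protein-coding genes (vertical axis, %) by gene length in kb (horizontal axis): genes with a clustered summit and with 3 or more, both of all genes, and genes with a clustered summit of those with any strong summit. The first rises from 3.12% under 2 kb to 15.7% at 50 kb or more, and the last stays between 21% and 26.1%.

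Gene lists are described by their counts beside these shares, without a test, and several lists consist of long genes. Summits nearer than 500 bp to a higher one are kept in these counts, which may thus hold the same site more than once. Signalling lists come first, to be read beside 5.92% of all protein-coding genes and 23% of those with any strong summit. The second share rests on few genes here and in the next paragraph. Genes with any strong summit numbered 13 for Dpp, 18 for EGFR and FGF, 10 for Wingless and Hedgehog, 8 for Notch and 11 for growth control. Median gene lengths of the last 4 lists were 14.1, 12.5, 3.5 and 17 kb. Of 20 Dpp pathway genes 6 did (30%; 46.2% of those with any strong summit; median gene length 10.6 kb). They included shn with 17 summits, Dad, the inhibitory Smad, with 6 of up to 656, sog, an extracellular antagonist, with 4, and brk, a repressor of Dpp targets, with 1 of 681. Of 27 EGFR and FGF genes 5 did (18.5%; 27.8% of those with any strong summit), and these were led by Raf with 8, the ETS effector pnt with 5, and the ligand genes spi with 4 and Krn with 2. Among 27 Wingless and Hedgehog genes there were 4 (14.8%; 40% of those with any strong summit), namely the receptor genes fz2 with 5, ptc with 2 and arr with 1, and the kinase gene sgg with 1. In the Notch list it was 3 of 21 (14.3%; 37.5% of those with any strong summit), with mam, a coactivator gene, at 4 summits, the target gene E(spl)m3-HLH at 2 and neur at 1. In the list of growth control and Hippo genes it was 5 of 17 (29.4%; 45.5% of those with any strong summit), among them foxo and InR with 5 each, kibra with 3 and Myc with 2.

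Among genes of nuclear factors, 6 of 22 BTB transcription factor genes held clustered summits (27.3%; 33.3% of those with any strong summit; median length 25.7 kb). Trl had 5, ken 4, lola 3 and BtbVII itself 3, of up to 1771. The line carries a tagged BtbVII, and whether extra copies of its sequence bear on that value was not tested. Steroid response and nuclear receptor genes counted 5 of 25 (20%; 33.3% of those with any strong summit), with ftz-f1 at 8 summits, Hr4 and Hr38 at 5 each and Hr3 at 3. Trithorax group genes counted 4 of 18 (22.2%; 33.3% of those with any strong summit), with Trl and tna at 5, trx at 2 and skd at 1; the list used does not include tara, which held 8. Polycomb group genes counted 2 of 17 (11.8%; 28.6% of those with any strong summit), ph-p with 4 of up to 1871 and Su(z)2 with 2. Of 14 insulator protein genes 2 did (14.3%; 28.6% of those with any strong summit), CTCF and pzg with 1 each.

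Tissue, patterning and stress genes were counted in the same way, and the second share rests on few genes. None of 17 gap and pair-rule genes held a clustered summit, and 3 of them held a strong summit of any kind. The Hox list had 1 of 8 (33.3% of 3 with a strong summit), Antp with 4 summits in its 103 kb. Of these 4 summits, only 2 stayed after those nearer than 500 bp to a higher one were dropped. The neural list had 3 of 28 (30% of 10), fra, the netrin receptor gene, with 5, elav with 4 of up to 1471 and sli with 2. The muscle and mesoderm list had 1 of 26 (10% of 10), Mef2 with 6. For gut, trachea and gland regulators it was 2 of 21 (22.2% of 9), ush with 9 and GATAe with 2. Septate junction and polarity genes had 3 of 19 (27.3% of 11), Nrg and scrib with 4 each and crb with 3. Apoptosis genes had 2 of 12 (50% of 4), Diap1 with 4 and Dark with 2, and heat shock genes 3 of 18 (33.3% of 9), stv with 4, Hsp26 with 1 and Hsp68 with 1.

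Families of short genes are given last. Ribosomal protein genes often had a strong summit (71 of 92), and 18 of them held a clustered one (19.6%). These were 25.4% of those with a strong summit, near the 23% over all genes. RpL32, RpL3, RpL34b and RpL28 had 2 each and none held 3 or more. The median length of this list was 1.3 kb, and only 0.0153% of all genes under 2 kb held 3 or more. None of 117 cuticle protein genes and none of 179 chemoreceptor genes held a clustered summit, and only 3 and 6 of them held any strong summit.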

How the data were processed

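ChIP-seq of BtbVII-eGFP was analysed from the authors' deposited region lists of 3 biological replicates. The signal in these lists was computed by the authors' peak caller, and the strong peaks are the list that they passed through an irreproducible discovery rate (IDR) filter; no source used here names the aligner, the caller or the IDR threshold. No counts were used, so depth is unknown, and the number of replicates limits the precision. All 6 lists used hold per-region values, and signal was compared only within a list. Summits were placed on Ensembl release 115 gene models (BDGP6.54), in the order promoter, then exon classes, intron and intergenic, and the genome sequence was Release 6.

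The rule was applied to the pooled list and afresh to the 5219 regions of highest signal of each replicate. Clustered minus isolated gave 1 value per replicate, tested with a two-sided exact sign-flip permutation test. Intervals are exact (Clopper-Pearson) 95% and cover counting error over peaks, which are not independent. Python 3.11.15, numpy 2.4.6, pandas 2.3.3 and scipy 1.17.1 were used, and the steps were tested on simulated data. The members and the 21 gene lists were chosen with earlier results of these data known, and 4 of the symbols listed matched no coding gene. Genes named are the host of each of the 15 loci with most summits (ties by summed signal), the nearest gene of the 10 highest peaks, and up to 4 genes per list with most clustered summits; peaks shown as sequence carry the gene of their nearest TSS, and Rab3GAP1, chinmo, Bacc and lncRNA:CR43334 were added after their values were seen. Alternatives varied the window, the number of neighbours, close summits, repeats, signal and replicates.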

Additional observations from a re-analysis of the deposited data

How the results depend on the processing

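Under every alternative run, the intron difference (5.45 to 13.9 percentage points, 10 alternatives), the GAGAGA difference (2.21 to 6.28, 12 alternatives) and the weaker candidate difference (3.26 to 4.62, 10 alternatives) kept their direction. The promoter difference did so in 12 of 13, and its sign turned with a window of 20000 bp (0.0208). The support difference reversed in the strong peaks above the median signal (-2.51) and with any replicate region counted (-0.311). GC reversed in those peaks (-0.0491) and in the widest sequence windows (-0.112); the cause of these reversals was not tested. The clustered share follows from the rule: 15.1% at 5000 bp, 57.8% at 20000 bp, 53.2% with at least 2 others, 10.6% with at least 5, 27.6% without close summits, 14.8% above the median signal, 28.5% in the dm3 list and 21.1 to 22.0% without each replicate. In the same order the signal ratio moved to 1.11 at both windows, 1.18 with at least 5 others, 1.065 above the median signal, 1.05 on dm3 and 1.031 to 1.065 without each replicate, and the gene count was 290, 1753, 1507 with at least 2 others, 198 with at least 5, 164 above the median signal and 318 to 370 without each replicate. Read depth is unknown, and with 3 replicates the exact test cannot go below 0.25.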

Other observations

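By gene, the members were most numerous in shn, but the order of genes differs from that of loci. Tlk on X (3720007 to 3789770), which encodes a chromatin-associated kinase, had 14 clustered summits of up to 1883, and rdx, the gene of a BTB adaptor of a ubiquitin ligase on 3R, had 11 of up to 783. REPTOR, a transcription factor gene of the TOR pathway, had 9 of up to 1354, all of its strong summits. In bun, a gene of a leucine zipper factor on 2L, 9 of 17 strong summits were clustered. After summits nearer than 500 bp to a higher one were dropped, 6 of the 9 stayed at REPTOR and all 9 at bun. These 4 genes were chosen after their values were seen.

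Members with GAGAGA are set beside those without it. The 277 with the motif had a median signal of 272, and the 1452 without it 265. Of those with it 63.5% had the support of all 3 replicates, against 61.4%, and 49.1% lay at promoters, against 41.1%. These values are descriptions with no test.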
